A study of Mus musculus with 6 samples.

Results

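The protocadherins of mouse embryonic stem cells (ESCs) and of the epiblast-like cells (EpiLCs) derived from them were taken as every gene of the expression table whose symbol begins with Pcdh. The rule found 70 of the 24736 genes in the table. Of these, 58 belong to the clustered families (14 Pcdha, 22 Pcdhb and 22 Pcdhg genes) and 12 are non-clustered genes with a number after the stem. RNA-seq was done on 3 libraries of each state, labelled as biological replicates, from a single XY wild-type ESC line (HM1 TetON, the control line of the study, so that every library carries the transactivator). The ESCs (0 h) had been grown on mitotically inactivated fibroblast feeders with LIF at 1000 U/ml and serum at 10%. The EpiLCs had been kept for 48 h in N2/B27 medium containing bFGF (10 ng/ml) and LGK974 (5 µM), a porcupine inhibitor that blocks WNT secretion, after feeders had been reduced by their adhesion to the plate. Because there was 1 line, p-values refer to the spread between these cultures and not between cell lines.

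Protocadherins are cadherin superfamily receptors with extracellular cadherin repeats and a single membrane span. In the alpha and gamma clusters each variable exon has its own promoter and is spliced to a set of constant exons shared by the whole cluster, so that members differ outside the cell and share the cytoplasmic tail. Beta genes consist of 1 exon each and lack the shared tail. In neurons, individual cells use different combinations of these promoters, a choice that involves CTCF, cohesin, DNA methylation and SMCHD1, and the resulting proteins bind their own kind on neighbouring cells. The C-type members at the end of the alpha and gamma clusters are under separate control. The non-clustered genes lie dispersed in the genome and are mostly known for weak adhesion and for signalling through partners such as the WAVE complex during tissue formation.

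In short, EpiLCs had more RNA of the airway epithelial protocadherin Pcdh1 (13.9-fold) and less of Pcdh7 (13.2-fold), more of 3 weakly detected alpha genes and less of 11 of the 22 gamma genes. The alpha genes reached the counts needed for a test only through the EpiLC libraries, as did Pcdh17 and Pcdh20, which were also called higher. After genes with few counts were removed, 36 of the 70 protocadherins could be tested with edgeR's quasi-likelihood test, and 18 of these passed an adjusted p of 0.05. Of the 18, 6 were higher and 12 were lower in EpiLCs. Among all 14468 genes tested, 45.4% passed, 22.6% higher and 22.8% lower, so the protocadherins as a whole changed about as often as genes in general. The median log2 fold change was -0.67 for the 36 protocadherins and -0.0017 for all genes tested. A member that was silent in one state and just detected in the other could pass the removal step only through the higher state, and the 34 untested members are therefore described by their levels. Of these, 3 (Pcdha8, Pcdhb10 and Pcdhb13) were at 0 in every library.

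Library totals were between 16967741 and 35096210 expected counts, at which 3 counts correspond to between 0.0855 and 0.177 CPM (counts scaled to library size). All 6 naive ESC markers were lower and all 5 EpiLC markers were higher in the EpiLC libraries, with summed levels of 1465 to 1936 TPM against 47.1 to 67.3 TPM, and of 293 to 399 TPM against 2055 to 2125 TPM. RNA of fibroblast genes was present in the ESC libraries in unequal amounts. The summed level of 15 fibroblast markers was 388, 1722 and 141 TPM in ESC replicates 1, 2 and 3, and 117, 114 and 105 TPM in the EpiLC replicates. Within the ESC group, 14 of the 15 markers were highest in replicate 2 and lowest in replicate 3, and 7 of the 14 tested were lower in EpiLCs with none higher. No marker was at 0 in all libraries of either state, and Lum was at 0 in ESC replicate 3 and EpiLC replicates 1 and 2. Primitive endoderm markers also differed (4 of 6 lower, 27.9 to 51.9 TPM in ESCs against 8.79 to 10.2 TPM). Neural markers had a summed level of 63.5 to 99.5 TPM against 149 to 166 TPM, mostly Tubb3. Of them 3 of 7 tested were higher, near the 45.4% called of all genes tested. Sox1, Map2, Pax6 and Elavl4 were not called, with log2 fold changes of 0.098, 0.50, -0.88 and -0.21. Primitive streak markers differed more (4 of 5 lower). Their summed level was 420, 169 and 133 TPM in ESC replicates 1, 2 and 3 and 7.91, 7.68 and 45.3 TPM in the EpiLC replicates, so that ESC replicate 1 and EpiLC replicate 3 stood above the others of their group. Fewer cells of a type and less RNA per cell cannot be told apart in these bulk samples.

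Promoters of 9 of the 12 non-clustered genes were read from RefSeq (GRCm38.p6, 10 promoters of 300 bases), and clustered promoters were not analysed here. Pcdh1, Pcdh11x and Pcdh12 had no promoter among them. Pcdh9 is counted with both of its annotated promoters, which largely overlap (chr14:93890620-93890919 and chr14:93890630-93890929). The non-clustered promoters held a median of 18 CG dinucleotides (range 4 to 26), against 7 over all 32851 promoters of the same length. The letters CGCT, the core of the box known from clustered promoters, were found on either strand in 10 of 10, against 61.8% of all promoters. The core of the CTCF motif was found in 1 (that of Pcdh15), against 3.38%, and CACGTG in 0, against 7.15%. The letters CGCT contain a CG, which these promoters held more of, and a match is not a binding site. Among the called genes with a promoter here, which leaves out Pcdh1, the 300-base promoter of Pcdh17 held 26, that of Pcdh7 11 and that of Pcdh20 4 CG. The 250 bases before the start of Pcdh17 and Pcdh20, both higher in EpiLCs, are printed 5′ to 3′ on the strand of the gene, with each CG in capitals, to show that these promoters were unlike in CG content. They lie at chr14:84443313-84443562 (plus strand, 21 CG) and chr14:88471397-88471646 (minus strand, 3 CG).
Pcdh17: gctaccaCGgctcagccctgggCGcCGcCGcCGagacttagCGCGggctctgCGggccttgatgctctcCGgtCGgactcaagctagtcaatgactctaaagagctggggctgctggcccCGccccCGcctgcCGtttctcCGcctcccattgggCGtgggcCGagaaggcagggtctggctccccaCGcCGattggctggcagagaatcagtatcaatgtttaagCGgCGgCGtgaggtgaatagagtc
Pcdh20: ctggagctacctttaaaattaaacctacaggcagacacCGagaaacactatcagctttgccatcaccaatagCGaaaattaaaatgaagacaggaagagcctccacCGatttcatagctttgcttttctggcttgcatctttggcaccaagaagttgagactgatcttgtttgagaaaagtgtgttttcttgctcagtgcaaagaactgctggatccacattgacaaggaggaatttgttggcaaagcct

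Among the non-clustered genes, 9 of 12 were tested, 3 were higher (Pcdh1, Pcdh17 and Pcdh20) and 1 was lower (Pcdh7), or 44.4% called against 45.4% of all genes tested. Pcdh1 (GRCm38, chromosome 18, 38185914 to 38212048), which encodes an adhesion protein best known from airway epithelium, had 6.11, 4.83 and 5.71 TPM in the 3 ESC libraries and 82.19, 79.80 and 77.87 TPM in the 3 EpiLC libraries. The groups lay far apart and each was tight, at means of 5.55 ± 0.655 TPM and 79.95 ± 2.16 TPM (SD, n = 3). The log2 fold change was 3.79 (SE 0.10, edgeR adjusted p = 9.51e-06). By p-value it ranked 4 among all 14468 genes tested. Counted from the largest rise, with falls last, its fold change ranked 62.

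Pcdh7, a cadherin that interacts with the nuclear and cytoplasmic protein SET, showed a change of like size in the other direction. Its levels were 25.65, 23.98 and 10.28 TPM in ESCs and 1.35, 1.29 and 2.14 TPM in EpiLCs, a log2 fold change of -3.72 (SE 0.38, edgeR adjusted p = 0.0005). ESC replicate 3, which had the least fibroblast marker RNA, also had the least Pcdh7 of the ESC libraries, at a level above every EpiLC library. Without ESC replicate 2, the library richest in fibroblast RNA, the log2 fold change was -3.57. In both groups the order of Pcdh7 among libraries was that of the primitive streak markers, with ESC replicate 1 and EpiLC replicate 3 highest. The log2 fold change was -3.52 without the former and -3.94 without the latter, and the part of feeder or streak marker RNA in the difference was not tested. Pcdh7 is on chromosome 5 (57716145 to 58133236). It gave the largest share of non-clustered counts in each ESC library, and Pcdh1 did so in each EpiLC library. Pcdh1 made up 5.91 to 17.0% of the expected counts of all non-clustered genes in ESCs and 79.0 to 80.6% in EpiLCs, while Pcdh7 went from 50.7 to 60.6% to 2.25 to 3.58%.

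**Figure D1:**
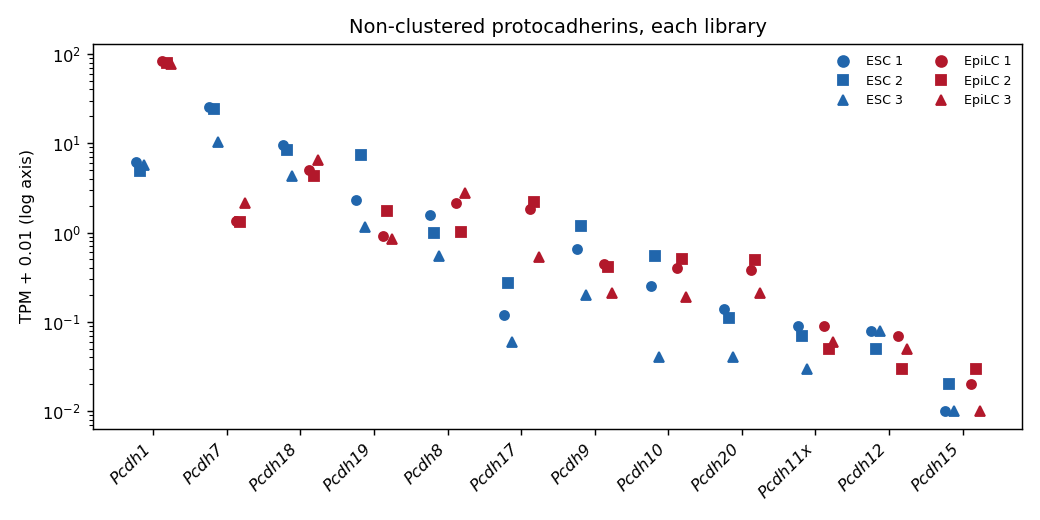
TPM of the 12 non-clustered protocadherins in each of the 6 libraries, on a log axis after adding 0.01 TPM, with ESC and EpiLC libraries as separate symbols. Pcdh1 was at 4.83 to 6.11 TPM in the ESC libraries and at 77.87 to 82.19 TPM in the EpiLC libraries, and Pcdh7 showed the opposite order.

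The other genes that rose did so from a low level. Pcdh17 (chromosome 14, 84443563 to 84537565), a protocadherin of synapses that recruits actin regulators, had 0.11, 0.26 and 0.05 TPM in ESCs and 1.83, 2.19 and 0.52 TPM in EpiLCs, a log2 fold change of 3.44 (SE 0.71, edgeR adjusted p = 0.00802). All EpiLC libraries were above all ESC libraries, but EpiLC replicate 3 was well below the other two. Without ESC replicate 2 the log2 fold change was 4.18. Pcdh20 (chromosome 14, 88464743 to 88471396) had 0.13, 0.10 and 0.03 TPM in ESCs and 0.37, 0.48 and 0.20 TPM in EpiLCs, with a log2 fold change of 2.05 (SE 0.57, edgeR adjusted p = 0.0241). Pcdh17 and Pcdh20 reached the counts needed for a test through the EpiLC libraries, and both were dropped when at least 10 counts were required in every library. For Pcdh20 there were 2 to 7 reads per ESC library and 15 to 40 per EpiLC library, and the call was lost when any of ESC replicate 3 (adjusted p = 0.0513), EpiLC replicate 1 (0.0746) or EpiLC replicate 2 (0.0834) was left out.

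The remaining tested genes did not pass the test. Pcdh18 had 9.57, 8.48 and 4.30 TPM in ESCs and 4.98, 4.23 and 6.41 TPM in EpiLCs (log2 fold change -0.56, edgeR adjusted p = 0.173), and the groups overlapped. Its libraries were ordered like the primitive streak markers in both groups. Pcdh19, the X-linked gene mutated in a form of epilepsy that affects heterozygous females, had 2.31, 7.46 and 1.14 TPM in ESCs and 0.91, 1.74 and 0.83 TPM in EpiLCs (-1.68, edgeR adjusted p = 0.0803). Its level in ESCs followed the fibroblast markers, being highest in replicate 2 and lowest in replicate 3, and their part in the difference was not tested. Without ESC replicate 3 both genes were called lower, Pcdh18 at -0.83 (edgeR adjusted p = 0.0157) and Pcdh19 at -2.11 (0.0192). Without ESC replicate 2, however, Pcdh19 was at -0.61 (edgeR adjusted p = 0.249).

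Pcdh8, the paraxial protocadherin of early mesoderm, had 1.56, 0.98 and 0.54 TPM in ESCs and 2.11, 1.01 and 2.78 TPM in EpiLCs (0.96, edgeR adjusted p = 0.147), with ESC replicate 1 and EpiLC replicate 3 highest, as for the streak markers. Pcdh9 had 0.65, 1.18 and 0.19 TPM in ESCs and 0.44, 0.40 and 0.20 TPM in EpiLCs (-0.96, edgeR adjusted p = 0.255), and was called lower without ESC replicate 3 (-1.42, edgeR adjusted p = 0.0329) but lay at -0.27 without ESC replicate 2 (0.721). Pcdh10 had 0.24, 0.54 and 0.03 TPM in ESCs and 0.39, 0.49 and 0.18 TPM in EpiLCs (0.56, edgeR adjusted p = 0.583). In each of these genes the libraries of the 2 states overlapped.

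The genes too low to test were near the limit of detection in both states. Pcdh11x had 0.02 to 0.08 TPM, Pcdh12, the endothelial VE-cadherin-2, had 0.02 to 0.07 TPM, and Pcdh15, a component of the tip links of hair cells, had at most 0.02 TPM. The non-clustered genes together went from 134, 152 and 63.4 CPM in ESCs to 184, 179 and 177 CPM in EpiLCs, a log2 ratio of the means of 0.63, which was 1.25 in summed TPM and 0.33 without ESC replicate 3. Without Pcdh1 the same sum went the other way, from 123, 143 and 52.6 CPM to 35.8, 37.6 and 35.1 CPM, a log2 ratio of -1.55.

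**Figure D2:**
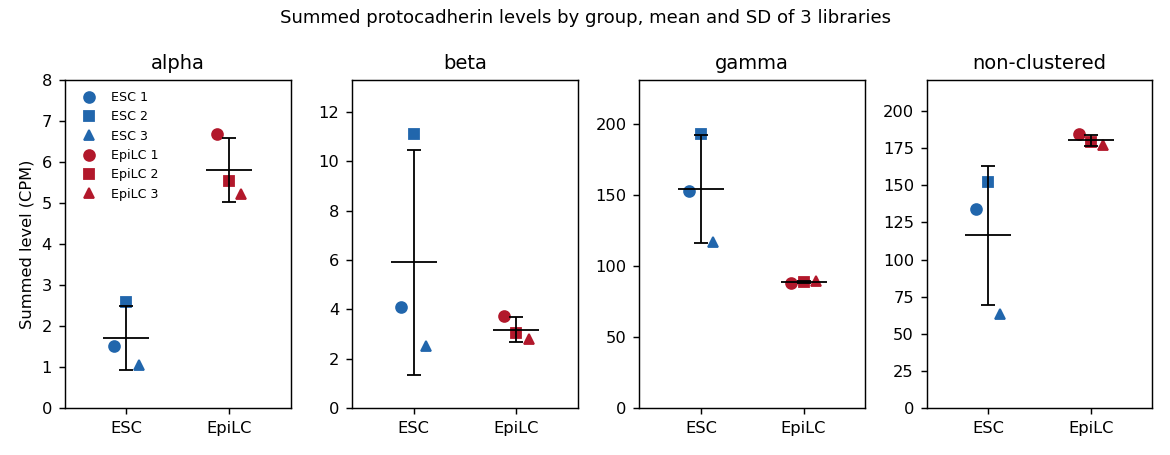
Summed CPM of the alpha, beta, gamma and non-clustered protocadherins in each library (points), with the group mean and SD (n = 3). The alpha sum was higher and the gamma sum lower in every EpiLC library than in every ESC library, while the beta sums overlapped.

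The clustered genes lie on chromosome 18 (GRCm38), the alpha cluster between 36930285 and 37188897, the beta cluster between 37264998 and 37521419, and the gamma cluster between 37661775 and 37841873. Since alpha and gamma transcripts share constant exons, RSEM had to divide their reads between members. In GENCODE M21 transcripts, a median of 56.1% of 76-base windows of an alpha gene (13 of 14 genes matched, range 33 to 59.2%) and 44% of those of a gamma gene (26.4 to 63.7%) occurred in another protocadherin, against 1.19% for beta genes (0 to 8.86%) and 0% for non-clustered genes. The longest stretch common to all was 2860 bases in 13 alpha genes and 2116 bases in 21 gamma genes. In the table, 97.8% of the alpha and 97.7% of the gamma counts above 0 were not whole numbers (deposited with 2 decimals, tolerance 0.001), against 14% for beta, 0% for non-clustered and 6.45% for all genes. The level of a single alpha or gamma gene is therefore an estimate that rests on its variable exon and on the division. The sum over a cluster does not depend on how reads were divided within it, and is given without a test. It does depend on the division with 3 read-through loci that span from the alpha to the end of the gamma cluster and are no members. The largest, Gm37013, had 4.21, 2.08 and 4.89 expected counts in ESCs and 0, 17.81 and 1.2 in EpiLCs, the highest where Pcdha4 was listed at 0.

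The alpha cluster was scarcely detected in ESCs and had a higher sum in EpiLCs. Its sum was 1.51, 2.58 and 1.04 CPM in ESCs and 6.68, 5.54 and 5.21 CPM in EpiLCs, or 1.71 ± 0.787 and 5.81 ± 0.770 CPM (SD, n = 3), a log2 ratio of 1.77. The groups did not overlap, and the sums rested on 29.1 to 43 expected counts per ESC library and 161 to 238 per EpiLC library. In ESCs 7 to 9 of the 14 genes were at 0 counts and in EpiLCs 3 to 6. The ESC sum was highest in replicate 2 and lowest in replicate 3, the order of the fibroblast markers.

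Of the 14 alpha genes 3 had enough counts for a test (Pcdhac2, Pcdha12 and Pcdha5). They reached these counts through the EpiLC libraries, so that a higher level there was a condition for being tested, and none was left when at least 10 counts were required in every library. DESeq2, which was run without this filter, called 5 alpha genes higher and 1, Pcdha10, lower. Pcdhac2, a C-type member, had 0.11, 0.21 and 0.15 TPM in ESCs and 0.87, 1.21 and 1.00 TPM in EpiLCs, a log2 fold change of 2.69 (SE 0.31, edgeR adjusted p = 8.25e-04). It made up 19.2 to 38.4% of the alpha counts in ESCs and 32.8 to 54.3% in EpiLCs, and without it the alpha sum still differed by a ratio of 2.49. Pcdha12 had 0.16, 0.06 and 0.04 TPM in ESCs and 0.63, 0.35 and 0.21 TPM in EpiLCs (2.17, SE 0.64, edgeR adjusted p = 0.0306), and lost its call when any of 4 libraries was left out, with adjusted p between 0.0613 (without ESC replicate 2) and 0.106 (without EpiLC replicate 1), and also at 0.0806 without ESC replicate 3 and 0.0646 without EpiLC replicate 2. Without ESC replicate 1 its log2 fold change was 3.04. Pcdha5 had 0.04, 0.06 and 0.04 TPM in ESCs and 0.18, 0.15 and 0.22 TPM in EpiLCs (2.00, SE 0.40, edgeR adjusted p = 0.00726). The last of these missed the threshold in DESeq2 (adjusted p = 0.0504). Pcdhac2 thus had the smallest adjusted p of the cluster, and the level of each gene rested on few reads.

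The untested alpha genes were listed at 0 in many libraries. Pcdha11 had 0.08, 0 and 0 TPM in ESCs and 0.30, 0.23 and 0.14 TPM in EpiLCs. Pcdha10 was higher in ESCs, with 0.20, 0.52 and 0 TPM in ESCs and 0 in all 3 EpiLC libraries, and took 33.7, 50.8 and 0% of the alpha counts of the ESC libraries, again in the order of the fibroblast markers. The other C-type member, Pcdhac1, had 0, 0 and 0.04 TPM in ESCs and 0.03, 0.03 and 0.07 TPM in EpiLCs. Pcdha3, singled out after its values were seen, was at 0 in the 3 ESC libraries and at 0.11 TPM in each EpiLC library.

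Beta genes were low in both states, and neither of the 2 that were tested was called. Their sum was 4.11, 11.1 and 2.51 CPM in ESCs and 3.73, 3.02 and 2.78 CPM in EpiLCs. The log2 ratio of the means was -0.89, but -0.06 without ESC replicate 2. All 9 beta genes with at least 10 counts over the ESC libraries were highest in that library, the one with the most fibroblast RNA, against 36.7% of all genes tested. Only 2 of the 22 genes passed the removal of low counts. Pcdhb22 had 0.91, 1.24 and 0.53 TPM in ESCs and 0.85, 0.37 and 0.52 TPM in EpiLCs (-0.63, SE 0.43, edgeR adjusted p = 0.265). Pcdhb2 had 0.03, 0.27 and 0.13 TPM in ESCs and 0.48, 0.34 and 0.30 TPM in EpiLCs, without overlap (1.36, SE 0.58, edgeR adjusted p = 0.0940), and was called higher without ESC replicate 2 (1.98, edgeR adjusted p = 0.0339). It reached the counts needed for a test only through the EpiLC libraries, so that a higher level there was a condition for being tested. Its ESC values rested on 1, 6 and 5 counts.

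Among the untested beta genes, Pcdhb17 stood out in ESC replicate 2. It had 0.41, 1.93 and 0.16 TPM in ESCs and 0.15, 0.16 and 0.08 TPM in EpiLCs, and gave 27.0% of the beta counts of ESC replicate 2 against 4.65 to 15.6% in the other libraries. Pcdhb16 had 0.15, 0.62 and 0.08 TPM in ESCs and 0.07, 0.12 and 0.04 TPM in EpiLCs. Both followed the order of the fibroblast markers among ESC libraries, and the part of feeder RNA in these levels was not tested. Pcdhb17 was called lower by DESeq2, and Pcdhb16, Pcdhb17 and Pcdhb18 were called lower without ESC replicate 3. For these genes that library was the lowest of the ESC group. Leaving it out let them pass the filter through the remaining ESC libraries, so that a higher level in ESCs was a condition for being tested. The other beta genes were at or below 0.71 TPM in every library.

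**Figure D3:**
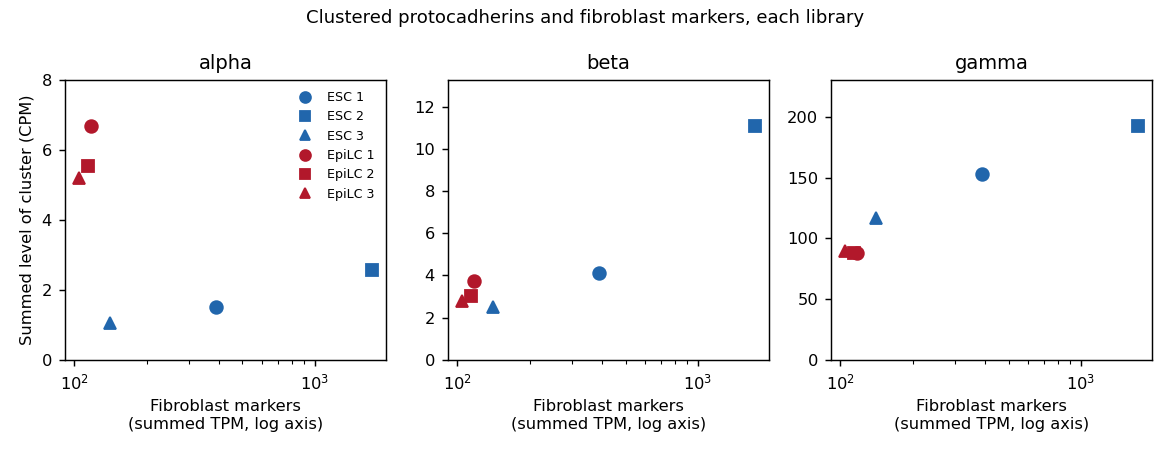
Summed CPM of the alpha, beta and gamma genes (vertical axes) against the summed TPM of 15 fibroblast markers (horizontal log axes) in the 6 libraries. ESC replicate 2, at 1722 TPM of fibroblast markers, had the highest alpha, beta and gamma sum of the ESC group, and ESC replicate 3, at 141 TPM, had the lowest.

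Gamma genes gave by far the most clustered protocadherin RNA in both states, and less in EpiLCs. Their sum was 153, 193 and 117 CPM in ESCs and 88.2, 88.3 and 89.6 CPM in EpiLCs, or 154 ± 37.8 and 88.7 ± 0.792 CPM (SD, n = 3), which is 1.74-fold higher in ESCs. The groups did not overlap, although the ESC libraries were spread widely and in the order of the fibroblast markers. Without ESC replicate 2 the log2 ratio was -0.60 instead of -0.80. ESC replicate 3, whose fibroblast marker level of 141 TPM was close to the 105 to 117 TPM of the EpiLC libraries, still had a gamma sum of 117 CPM, above all 3 EpiLC libraries. How much of the gamma difference came with feeder RNA was not tested.

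All 22 gamma genes were tested, 11 were lower and 0 were higher, and 21 of 22 fold changes were negative. The median log2 fold change was -0.93. Calls in the lower direction thus made up 50% of the gamma genes, against 22.8% of all genes tested, but since gamma genes share reads their values do not count as separate observations. Within the ESC group, 15 of the 22 (68.2%) were highest in replicate 2, against 36.7% of all genes tested. The number of calls also depended on single libraries. It was 8, 10 and 11 without ESC replicates 1, 2 and 3, but 3, 5 and 6 without EpiLC replicates 1, 2 and 3, with the median between -1.04 and -0.68 and the direction of called genes kept throughout. Pcdhga3 was called lower in every one of these 6 fits. So was Pcdhga6, but it could be tested only through its counts in the ESC libraries, where it was high, and was not tested when at least 10 counts were required in every library.

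**Figure D4:**
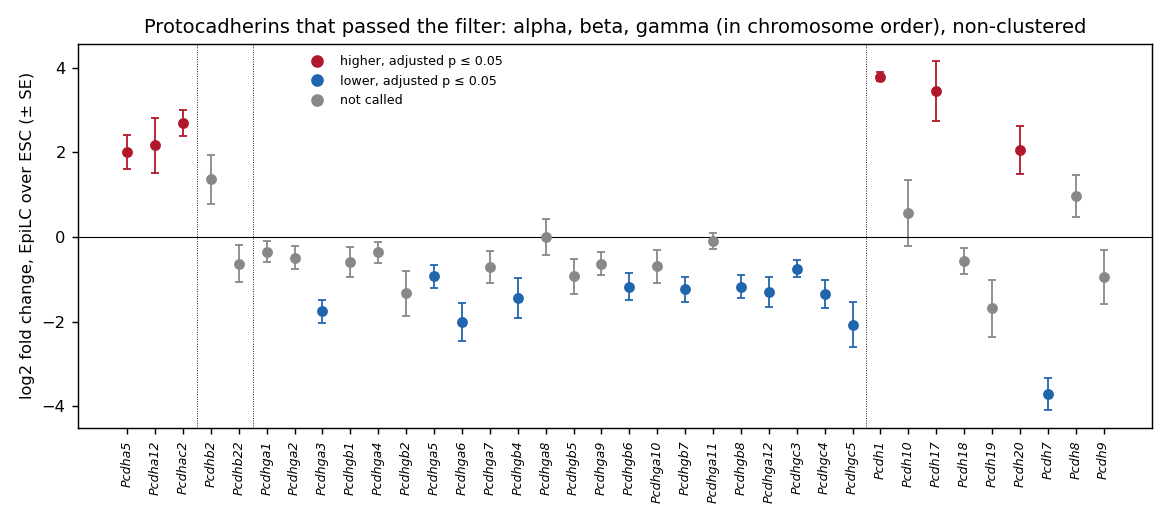
Fitted log2 fold change (EpiLC over ESC) with its standard error for the 36 tested protocadherins, grouped by family, with red for those higher and blue for those lower at an adjusted p of at most 0.05, and grey for the rest. The 22 gamma genes lie between -2.07 and 0.00, while the 3 alpha genes are at or above 2.00 and non-clustered genes range from -3.72 to 3.79.

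Pcdhgc3, a C-type member, dominated the cluster. It had 36.18, 36.60 and 21.66 TPM in ESCs and 18, 19.74 and 20.46 TPM in EpiLCs, or 31.5 ± 8.51 and 19.4 ± 1.27 TPM (SD, n = 3), and its log2 fold change was -0.75 (SE 0.19, edgeR adjusted p = 0.0186). The gap between the groups was small, since ESC replicate 3 was just above the highest EpiLC library, and the call was lost without ESC replicate 1 (adjusted p = 0.0557), EpiLC replicate 1 (0.0718) or EpiLC replicate 2 (0.0603). Its share of the gamma counts was 52.8, 42.6 and 42.2% in ESCs and 44.4, 47.8 and 50.1% in EpiLCs, with overlap. Without Pcdhgc3 the sum of the other gamma genes had a log2 ratio of -0.84, so that the difference of the cluster did not rest on this gene.

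The other C-type genes were also lower. Pcdhgc4, which is needed for the survival of neurons in mice, had 0.83, 0.56 and 0.74 TPM in ESCs and 0.29, 0.19 and 0.38 TPM in EpiLCs (-1.35, SE 0.33, edgeR adjusted p = 0.0151). Pcdhgc5 had 2.21, 4.19 and 1.19 TPM in ESCs and 0.85, 0.65 and 0.34 TPM in EpiLCs (-2.07, SE 0.53, edgeR adjusted p = 0.0173), with ESC levels in the order of the fibroblast markers. Their calls were each lost without some EpiLC library, Pcdhgc4 without replicate 1 (adjusted p = 0.0635) or 2 (0.0555) and Pcdhgc5 without replicate 2 (0.0583) or 3 (0.0567).

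The gamma A and B genes differed among themselves. Of the 12 A-type genes 4 were lower (median log2 fold change -0.66), of the 7 B-type genes 4 (median -1.18), and of the 3 C-type genes 3 (median -1.35), and these differences between types were not tested. Pcdhga6 had 0.37, 1.00 and 0.60 TPM in ESCs and 0.21, 0.15 and 0.12 TPM in EpiLCs (-2.02, SE 0.45, edgeR adjusted p = 0.0107). Pcdhga3 had 1.81, 2.66 and 1.74 TPM in ESCs and 0.64, 0.77 and 0.49 TPM in EpiLCs (-1.76, SE 0.27, edgeR adjusted p = 0.00244). In both genes the lowest ESC library was above the highest EpiLC library. For Pcdhga6 these libraries, ESC replicate 1 and EpiLC replicate 1, rested on only 17.32 and 16.09 expected counts. This gene was also tested only through its ESC libraries.

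The second most abundant gamma gene, Pcdhga11, was nearly level, with 4.28, 5.94 and 4.23 TPM in ESCs and 5.30, 4.17 and 4.54 TPM in EpiLCs (-0.09, SE 0.18, edgeR adjusted p = 0.700). Its share of the gamma counts was accordingly larger in EpiLCs, at 10.2 to 13.2%, than in ESCs, at 6.29 to 8.28%. Pcdhga1 had 1.88, 3.13 and 3.09 TPM in ESCs and 1.99, 2.13 and 2.47 TPM in EpiLCs (-0.35, SE 0.24, edgeR adjusted p = 0.273). Pcdhga7 had 1.97, 4.63 and 1.70 TPM in ESCs and 1.64, 1.93 and 1.63 TPM in EpiLCs (-0.71, SE 0.38, edgeR adjusted p = 0.170). The abundant A-type genes thus did not pass the test, and in all 3 the groups overlapped.

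The other called genes were Pcdhga5, Pcdhga12, Pcdhgb4, Pcdhgb6, Pcdhgb7 and Pcdhgb8, with log2 fold changes between -1.44 (Pcdhgb4) and -0.93 (Pcdhga5) and adjusted p between 0.0122 and 0.0437. Pcdhgb8, a transcribed pseudogene in RefSeq, was among them. Each of the 6 calls was lost when some library was left out, those of Pcdhgb7 and Pcdhgb8 only without EpiLC replicate 1 (adjusted p = 0.0566 and 0.0567), while Pcdhgb4 lost its call without any of the EpiLC libraries (0.0759 to 0.134) and was at -0.73 without ESC replicate 2. Pcdhga12 lost it without ESC replicate 3 (adjusted p = 0.0573), EpiLC replicate 1 (0.0843) or EpiLC replicate 3 (0.0835), Pcdhgb6 without ESC replicate 1 or any EpiLC library (0.0596 to 0.0792), and Pcdhga5 without any library except ESC replicate 3 (0.0612 to 0.0968). Of the genes not called, Pcdhga8 was at a log2 fold change of 0.00 (edgeR adjusted p = 1.00) and Pcdhgb2 at -1.33 (0.0792). The latter was called lower by DESeq2 (adjusted p = 0.0315) and without ESC replicate 3 (-1.72, edgeR adjusted p = 0.0105).

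**Figure D5:**
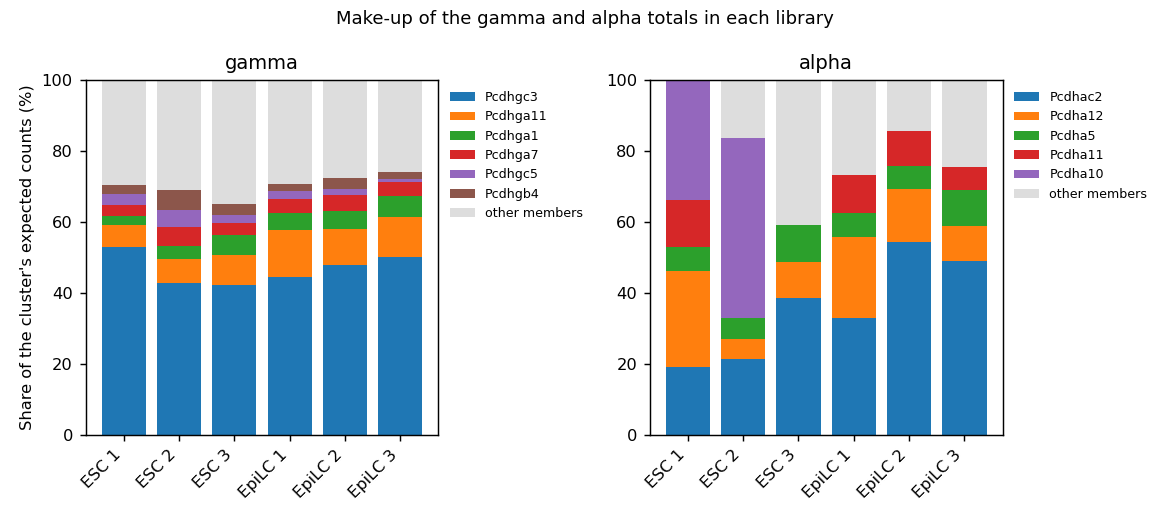
Share of the most abundant members, with all others in grey, in the summed expected counts of the gamma cluster and of the alpha cluster, as stacked bars (percent) for each of the 6 libraries. Pcdhgc3 took 42.2 to 52.8% of the gamma counts in every library, while the alpha counts were divided differently, with Pcdha10 at 33.7 and 50.8% in ESC replicates 1 and 2 only.

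Genes next to the clusters had no direction in common. Within 300 kb before the alpha cluster 13 genes were tested, of which 2 were higher (Apbb3 at 1.11 and Wdr55) and 1 was lower (Dnd1), with a median log2 fold change of 0.07. Taf7, a subunit of the general transcription factor TFIID that lies between the beta and gamma clusters, had a log2 fold change of -0.06 (edgeR adjusted p = 0.520). Within 300 kb after the gamma cluster 5 genes were tested, with 3 higher (Hdac3, Rell2 and Arap3) and 1 lower (Diaph1) and a median of 0.23. The calls, 3 of 13 before and 4 of 5 after the clusters, stand against 45.4% of all genes tested. These neighbours were named because of their place. Pcdh1, which rose, lies further along the same chromosome.

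Of 22 regulators known to act on clustered promoters, all of them tested, 4 were higher and 5 lower, with a median log2 fold change of -0.09. The 9 of 22 called are near the 45.4% of all genes tested. The de novo methyltransferase gene Dnmt3b rose from 290, 215 and 289 TPM to 1535, 1589 and 1660 TPM (2.54, SE 0.13, edgeR adjusted p = 5.89e-05), and is also one of the EpiLC markers. Dnmt3a rose by 1.19 (edgeR adjusted p = 0.00149) and the cohesin subunit gene Stag2 by 0.69 (8.55e-04), whereas the cohesin genes Rad21 and Pds5b, singled out after their values were seen, fell by 0.45 (0.00217) and 0.28 (0.0138) on the log2 scale. The cohesin genes and cohesin regulators Smc1a, Smc3, Stag1, Nipbl, Mau2, Wapl and Pds5a were not called. Ctcf rose by 0.24 (edgeR adjusted p = 0.0379), and Setdb1 and Trim28 were called lower (-0.29 each). Rest, which encodes a repressor of neuronal genes, fell from 119, 120 and 163 TPM to 52.7, 58.2 and 52.9 TPM (-1.35, SE 0.14, edgeR adjusted p = 0.0005). In each of these called genes every EpiLC library lay on one side of every ESC library.

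Among partners of protocadherins 21 of 22 were tested, with 8 higher and 2 lower and a median log2 fold change of 0.11. The 10 of 21 called are again near the 45.4% of all genes. Dab1, the adaptor of the reelin pathway, had 14.2, 13.5 and 11.4 TPM in ESCs and 37.8, 37.4 and 38.5 TPM in EpiLCs (1.79, SE 0.11, edgeR adjusted p = 9.78e-05). Cdh2, encoding N-cadherin, which associates with several protocadherins, had 71.5, 62.4 and 31.1 TPM in ESCs and 25.2, 21.4 and 21.6 TPM in EpiLCs (-1.32, SE 0.28, edgeR adjusted p = 0.00888), with the ESC libraries in the order of the streak markers. The receptor tyrosine kinase gene Ret rose by 1.15 (edgeR adjusted p = 0.00472) and Cyfip2, a WAVE complex subunit gene, by 0.94 (0.0168), the latter not without EpiLC replicate 1 (0.0558) or 2 (0.0581).

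Of 18 other large cadherins 14 were tested, with 3 higher and 3 lower and a median log2 fold change of 0.22. Fat4, a ligand and receptor in planar polarity signalling, had 1.33, 7.97 and 0.68 TPM in ESCs and 0.21, 0.30 and 0.10 TPM in EpiLCs (-4.06, SE 1.00, edgeR adjusted p = 0.0155), in ESCs again in the order of the fibroblast markers, and the call was lost without EpiLC replicate 1 (adjusted p = 0.0593) or 3 (0.0601). Without ESC replicate 2 the log2 fold change was -2.35. Cdh23, the tip link partner of Pcdh15, fell by 2.33 on the log2 scale (edgeR adjusted p = 0.00541), whereas Dchs2 rose by 2.29 (0.00307) and Celsr2 by 1.06 (0.00147). Cdh23 was tested through its counts in the ESC libraries and Dchs2 through those in the EpiLC libraries, and neither had at least 10 counts in every library. The 6 of 14 called are close to the 45.4% of all genes tested.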

How the data were processed

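Total RNA was enriched for polyadenylated transcripts and sequenced as stranded 76-base single-end reads. According to the submitters' processing notes and the methods of the study, reads were trimmed with cutadapt 1.16, aligned to mm10 with STAR 2.5.2a and quantified per gene with RSEM 1.3.0. The authors deposited expected counts and TPM per gene and library. Expected counts were rounded to whole numbers here and analysed with edgeR 4.0.16 (R 4.3.3) using TMM, filterByExpr and the quasi-likelihood test, on 3 ESC and 3 EpiLC libraries without a block. Benjamini-Hochberg adjustment ran over all genes tested, with 0.05 as threshold. The SE of a log2 fold change was its size divided by the square root of F. The code was tested on simulated data. CPM used TMM-scaled library totals. Alternatives were upper-quartile scaling, DESeq2 1.42.0, no filter, at least 10 counts in every library, a replicate block, limma 3.58.1 on log2(TPM + 1) and log2(TPM + 0.1), summed TPM, and each library left out in turn.

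Genes named with values were all non-clustered and C-type members, the 4 most abundant members of each cluster, up to 3 called rises and falls per cluster, and up to 4 called genes of each other list (all called genes where 5 or fewer were called). Pcdha3, some markers, further called gamma genes and further called regulators were added after their values were seen, and chromosome neighbours because of their place. The members and gene lists were chosen with earlier results of these data known. The planned comparison of constant regions between proteins was replaced by one between GENCODE M21 transcripts. Promoters were RefSeq sequences of GRCm38.p6. The culture methods give a longer time for EpiLCs than the labels, whose 48 h are used.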

Additional observations from a re-analysis of the deposited data

How the results depend on the processing

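Over 13 alternative settings, 6 of the 18 called protocadherins (Pcdh1, Pcdh7, Pcdh17, Pcdhac2, Pcdhga3 and Pcdhga6) passed the threshold in each setting that tested them, although Pcdh17, Pcdhac2 and Pcdhga6 could be tested only through the state in which they were higher and were not tested with at least 10 counts in every library. The other 12 lost the call in at least 1 setting, and none of the 18 changed sign. The number higher, 6, became 1 with at least 10 counts in every library, a filter that left no alpha gene to test, and 3 with limma on log2(TPM + 1), and the number lower, 12, ranged from 4 to 19 when single libraries were left out (4, 6 and 7 without EpiLC replicates 1, 2 and 3, and 19 without ESC replicate 3), with 4 to 7 higher. Genes near no change reversed their sign, Pcdh10 without ESC replicate 3 (-0.0243, range without single libraries to 1.49), Pcdhga11 without ESC replicate 2 (0.0792, range from -0.191), and Pcdhga8 in DESeq2 (-0.000198) and without ESC replicate 2 or EpiLC replicate 1 (-0.280 and -0.167, range to 0.303). Regulators higher numbered 8 with both limma settings and 3 to 7 without single libraries, and lower 3 to 8. Partners lower numbered 1 with upper-quartile scaling, without the filter, with the block and with both limma settings, and 1 to 3 without single libraries. Other large cadherins numbered 2 to 5 higher and 1 to 3 lower without single libraries. The log2 ratio of the summed counts without single libraries was -1.26 to -0.0588 for beta and 0.33 to 0.87 for non-clustered genes, and 1.25 for the latter in summed TPM. Deviations from the group mean correlated at 0.00668, 0.186 and 0.17 between libraries of the same number, and at -0.215 to 0.0836 between those of different numbers. The values for replicates 2 and 3 were thus the highest. The labels do not say whether the numbers pair the libraries, and the main fit used no block. With the replicate block, 6 protocadherins were higher and 14 lower, as Pcdh19 (-1.38, adjusted p = 0.0218) and Pcdhgb2 (-1.24, adjusted p = 0.0157) were then called. The depth leaves alpha, beta and the lowest non-clustered genes at a few reads per library, and fibroblast RNA was unequal among the ESC libraries. The cause of these shifts was not tested.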
